A study of Rattus norvegicus with 10 samples.

Results

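The 3 microRNA (miRNA) genes examined here are known for their abundance in red blood cells, and their products were followed through the left ventricle of rats given saline or dexmedetomidine (DEX). They were selected by name from the 761 miRNA probes of the chip, and gave 4 members: rno-miR-144-3p (MIMAT0000850) and rno-miR-144-5p (MIMAT0017130), the arms of the miR-144 hairpin, rno-miR-451-5p (MIMAT0001633) and rno-miR-486 (MIMAT0037265). Of these, 3 of 4 were detected on enough arrays to be tested (at least 5 of 10), and rno-miR-144-5p was detected on none. Each member had 1 spot per array. The study asked which miRNAs differ in the heart after DEX, an alpha2 adrenergic receptor agonist used as a sedative, and in this comparison red cell miRNAs were followed as a possible measure of blood left in the tissue.

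All animals were male Wistar rats of 250 g to 350 g. The Control group (administration of saline, n = 5) received saline and the DEX group (administration of dexmedetomidine, n = 5) received DEX in saline, each for 30 min and then a short washout, and 1 array was hybridized for each rat with total RNA of the left ventricular wall. The RNA came from whole tissue, and whether the hearts were flushed of blood before extraction is not given in the sources used here. In such bulk RNA, fewer cells of a type and less RNA per cell cannot be told apart. The labels give no blood count and no dose, and no age beyond the body weight.

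In background, a mature miRNA is cut from a hairpin and guides Argonaute to messenger RNAs that pair with its seed, the bases 2 to 8. The genes for miR-144 and miR-451 are neighbours, are transcribed together under the erythroid factor GATA1, and rise steeply as red cells mature. The miR-451 hairpin is cut by Argonaute 2 itself rather than by Dicer, and its 5p arm is the product known to act, for example on Ywhaz. In red cell precursors miR-144 is known to act on the antioxidant factor Nfe2l2 (Nrf2). The miR-486 gene lies in an intron of Ank1, the gene of ankyrin-1, and miR-486 is known in striated muscle as well as in red cells. Mature red cells have no nucleus and keep the miRNAs they were left with.

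RefSeq (build GRCr8) held the sequence of 3 of the 4 members. They are shown because the seed, in capitals, decides whether members can share targets, and rno-miR-451-3p (MIMAT0017193), the opposite arm of miR-451, is added since it was also on the chip.
rno-miR-144-3p: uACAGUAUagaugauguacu
rno-miR-144-5p: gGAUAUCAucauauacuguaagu
rno-miR-451-5p: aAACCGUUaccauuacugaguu
rno-miR-451-3p: aUGGUAAUgguucucuugcugcu
All 4 seeds differed, and none was shared with another of the 693 mature rat miRNAs of that table. Bases 2 to 7 of rno-miR-144-3p were shared by 2 miRNAs, rno-miR-101a-3p and rno-miR-101b-3p. The closest other mature sequence differed by 8 single-base edits for each of these 4 arms.

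The hairpins are shown to place the arms, with the mature arms in capitals. Mir144 lies at chr10:63459397-63459479 on the plus strand and Mir451a at chr10:63459569-63459640 on the plus strand (GRCr8), 89 bases apart. No annotated gene spanned the pair, and the next gene downstream was Eral1, which lay 133 bases after Mir451a.
Mir144: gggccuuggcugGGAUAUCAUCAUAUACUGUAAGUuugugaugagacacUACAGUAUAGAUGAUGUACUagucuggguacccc
Mir451a: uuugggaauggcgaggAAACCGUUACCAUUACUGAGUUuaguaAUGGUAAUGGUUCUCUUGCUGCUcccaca
The arms stand apart in the Mir144 hairpin, at bases 13 to 35 and 50 to 69. In the Mir451a hairpin rno-miR-451-5p covers bases 17 to 38 and rno-miR-451-3p bases 44 to 66.

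Signals are given as normalized signal, the spot intensity above the blank spots, scaled so that the median of the detected miRNAs of an array is 25. A miRNA was detected where the authors' table held a value, which meant a spot above the blank mean plus 2 SD in all but 6 of 7610 calls. Per array, 483 to 533 miRNAs were detected. By the array names, slide 1 held the first 4 Control arrays, slide 2 held Control 5 together with the first 3 DEX arrays, and slide 3 held the last 2 DEX arrays, so only slide 2 carried both groups. DEX 1 was the dimmest array before scaling, in its miRNAs and in its spike controls, which come from the assay and not from the tissue. The tissue label was met: the muscle miRNAs rno-miR-499-5p, rno-miR-133a-3p, rno-miR-208a-3p, rno-miR-1-3p, rno-miR-208b-3p and rno-miR-133b-3p were each detected on all 10 arrays.

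Rno-miR-144-3p, the arm known to act in red cells, varied severalfold between rats of the same group. On Control 1 to Control 5 its normalized signal was 36.3, 82.7, 90.9, 76.5 and 29.0. On DEX 1 to DEX 5 it was 66.5, 27.3, 22.6, 34.6 and 31.1. The high arrays were Control 2, Control 3, Control 4 and DEX 1, and the other 6 arrays lay at 36.3 or below, so the groups overlapped. The highest array was 4.02 times the lowest.

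**Figure D1:**
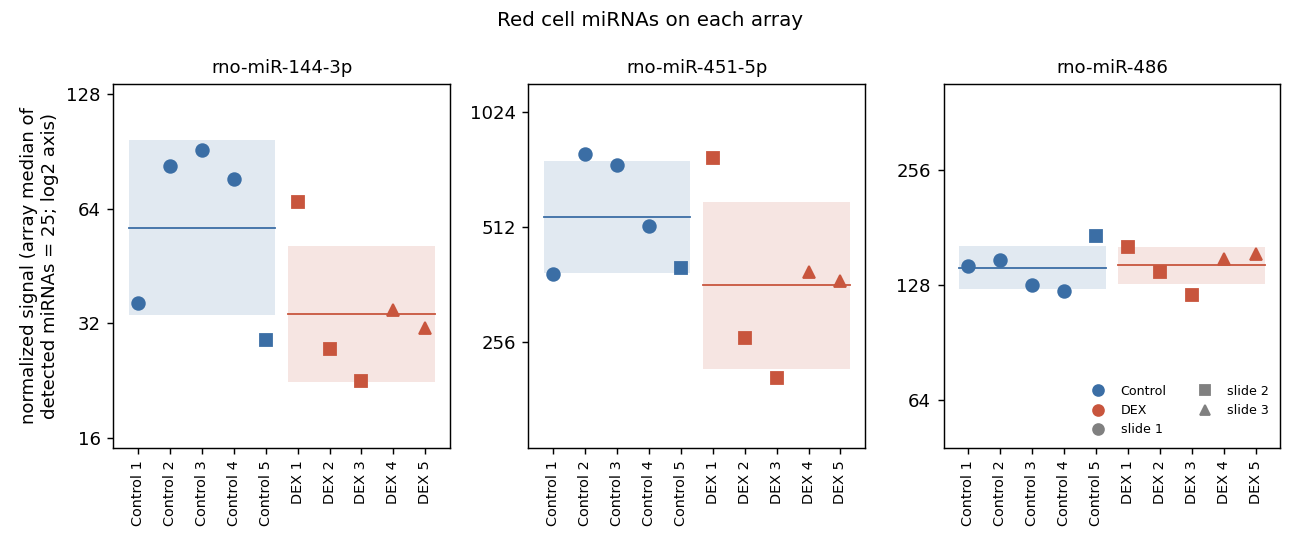
Normalized signal (log2 axis) of rno-miR-144-3p, rno-miR-451-5p and rno-miR-486 on each of the 10 arrays, coloured by group and shaped by slide, with lines at the group means of log2 signal and bands of 1 SD. Control 2, Control 3, Control 4 and DEX 1 are the highest in rno-miR-144-3p and rno-miR-451-5p, and rno-miR-486 stays between 120.1 and 172.

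Mean rno-miR-144-3p signal was 63.1 ± 28.4 in the Control group and 36.4 ± 17.4 in the DEX group (SD, n = 5 each). The log2 difference, DEX minus Control, was -0.75 with an SE of 0.36, which is a fold of 0.593 with a 95% confidence interval of 0.344 to 1.02. This did not pass limma's test across the 503 miRNAs detected on at least 5 arrays (unadjusted p = 0.0588, Benjamini-Hochberg adjusted p = 0.895), nor the two-sided exact permutation test (p = 0.0873), whose smallest possible p with 5 arrays a group is 0.00794. The rank of the difference was 4 from the lowest among the 503. Of the Control arrays 3 exceeded every DEX array, and of the DEX arrays 2 lay below every Control array. Slide 2 held 1 Control array, Control 5, the lowest of its group. Control 5 read 29.0 against 66.5, 27.3 and 22.6 on DEX 1 to DEX 3, of which only DEX 1 lay above it. The log2 difference on slide 2 was 0.25, the opposite direction, against a median of -0.19 over all tested miRNAs. Over all slides but without DEX 1, the log2 difference was -0.998 (unadjusted p = 0.0122, adjusted p = 0.798, limma).

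Rno-miR-451-5p, made from the neighbouring hairpin, had its highs and lows on nearly the same arrays. Its normalized signal was 385, 797, 745, 516 and 401 on Control 1 to Control 5. On DEX 1 to DEX 5 it was 777, 263, 207, 390 and 369. The 4 arrays highest in rno-miR-144-3p were also the 4 highest in rno-miR-451-5p, at 516 or above against 401 or below, and the groups again overlapped. High and low arrays occurred side by side on slide 1 (Control 1 low) and on slide 2 (DEX 1 high). The highest array was 3.86 times the lowest.

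The group means of rno-miR-451-5p were 569 ± 192 in the Control group and 401 ± 223 in the DEX group (SD, n = 5 each). The log2 difference was -0.59 with an SE of 0.33, a fold of 0.663 with a 95% confidence interval of 0.402 to 1.09 (limma, unadjusted p = 0.0987, adjusted p = 0.895; exact permutation test, p = 0.151). A group difference was therefore not shown by either test. Of the DEX arrays 3 lay below the lowest Control array, and 1 Control array lay above the highest DEX array. On slide 2 alone, with 1 Control array, the log2 difference was -0.20, against a median of -0.19 over all tested miRNAs there, and without DEX 1 it was -0.87 (limma, unadjusted p = 0.00804, adjusted p = 0.674).

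Rno-miR-486, known from muscle as well as from red cells, was nearly level. Its signal was 142.9, 148, 128, 123 and 172 on Control 1 to Control 5. On DEX 1 to DEX 5 it was 160.3, 138, 120.1, 149.8 and 154. The 4 arrays that were high in both other members were split here: Control 4 and Control 3 were the lowest Control arrays, while DEX 1 was the highest DEX array and Control 2 lay below only Control 5 among the Control arrays. The highest array was 1.43 times the lowest, and the groups overlapped throughout.

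Mean rno-miR-486 signal was 143 ± 19.2 in the Control group and 145 ± 15.9 in the DEX group (SD, n = 5 each). The log2 difference of 0.019 had an SE of 0.14 (limma, unadjusted p = 0.893, adjusted p = 0.974; exact permutation test, p = 0.857). The fold of 1.01 had a 95% confidence interval of 0.819 to 1.25, so changes within that range were not excluded by these arrays. On slide 2 alone the log2 difference was -0.31, against that same median of -0.19, and without DEX 1 it was -0.020.

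Of the 3 members tested, 0 passed an adjusted p under 0.05, where 0% of the 503 miRNAs passed. At an unadjusted p under 0.05 the count of members was also 0, beside 2.98% of the 503 (15 miRNAs), or 1.59% (8 miRNAs) for those lower in DEX. At a difference of 1.5-fold or more toward lower in DEX, whatever the p, stood rno-miR-144-3p and rno-miR-451-5p, beside 2.39% of all tested (12 miRNAs). The methods' t-test on the same values gave a p of 0.118, 0.168 and 0.867 for rno-miR-144-3p, rno-miR-451-5p and rno-miR-486, and 0 calls over all miRNAs after adjustment. No member's groups were free of overlap, as was the case for 0.596% of the 503.

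The opposite arms of both hairpins lay near or under the detection limit. Rno-miR-144-5p, the other arm of Mir144, was detected on 0 of 10 arrays. Its spots ranged from -7.59 over the blank mean on DEX 3 to 3.54 on DEX 4, where the detection limit on the arrays was 3.42 to 9.81 over the blank mean. No array came closer to its own limit than 0.361 of it, so no level and no group difference can be given for this arm.

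Rno-miR-451-3p passed the limit on 8 of 10 arrays, in part barely. Its signal was 9.82, 6.25, 7.31, 11.5 and 6.19 on Control 1 to Control 5. On DEX 1, DEX 2 and DEX 4 it was 5.02, 5.31 and 9.68, and on DEX 3 and DEX 5 it was not detected. Its high arrays were Control 4, Control 1 and DEX 4, an order unlike that of rno-miR-451-5p. With the undetected arrays at their floor, the lowest detected signal of an array, the means were 8.22 ± 2.37 in the Control group and 5.77 ± 2.26 in the DEX group (SD, n = 5 each). The log2 difference of -0.54 (SE 0.25) did not pass (limma, unadjusted p = 0.0550, adjusted p = 0.895; exact permutation test, p = 0.103).

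**Figure D2:**
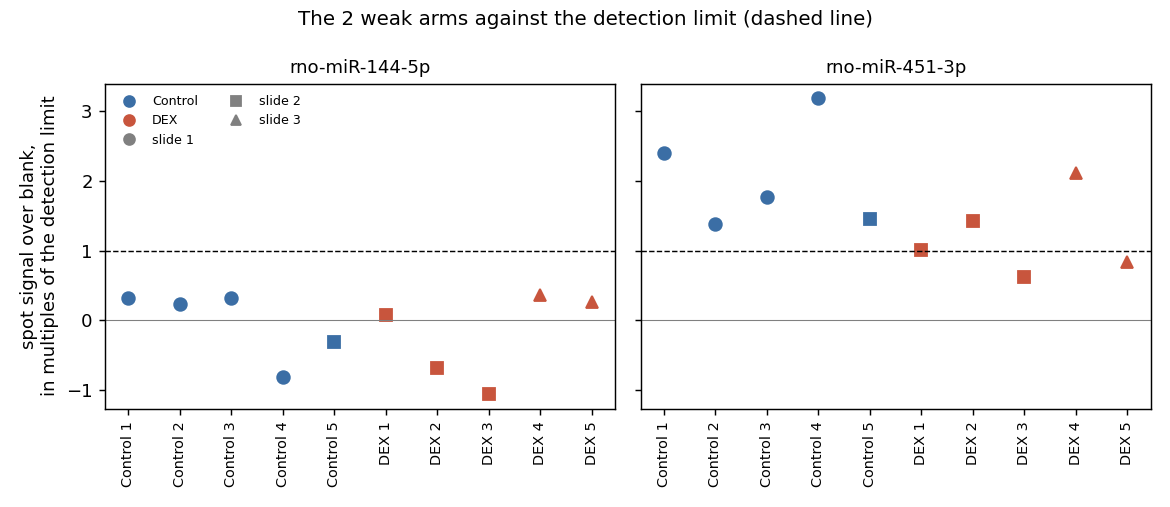
Spot signal over blank of rno-miR-144-5p and rno-miR-451-3p on each array, in multiples of the array's detection limit (dashed line at 1). Rno-miR-144-5p stays at or below 0.361 of the limit everywhere, and rno-miR-451-3p is under it on DEX 3 and DEX 5.

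The members also differed in their replicate spread. Within groups, the SD on the log2 scale was 0.68 for rno-miR-144-3p, 0.62 for rno-miR-451-5p and 0.18 for rno-miR-486, against a median of 0.30 over the 503 tested miRNAs. Ranked from the largest, these were places 21, 29 and 453. Because dim miRNAs spread more between arrays, each was also set among miRNAs of like brightness. Rno-miR-144-3p had the SD of rank 3 among 167 miRNAs of middle brightness, where the median was 0.29. Rno-miR-451-5p had the SD of rank 2 among the 168 brightest, where the median was 0.22, and rno-miR-486 had rank 141 in that same set. Rno-miR-451-3p, with an SD of 0.45, was ordinary for the dimmest 168, at rank 103 and a median of 0.48. These ranks are a description of the 10 arrays, with no test.

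**Figure D3:**
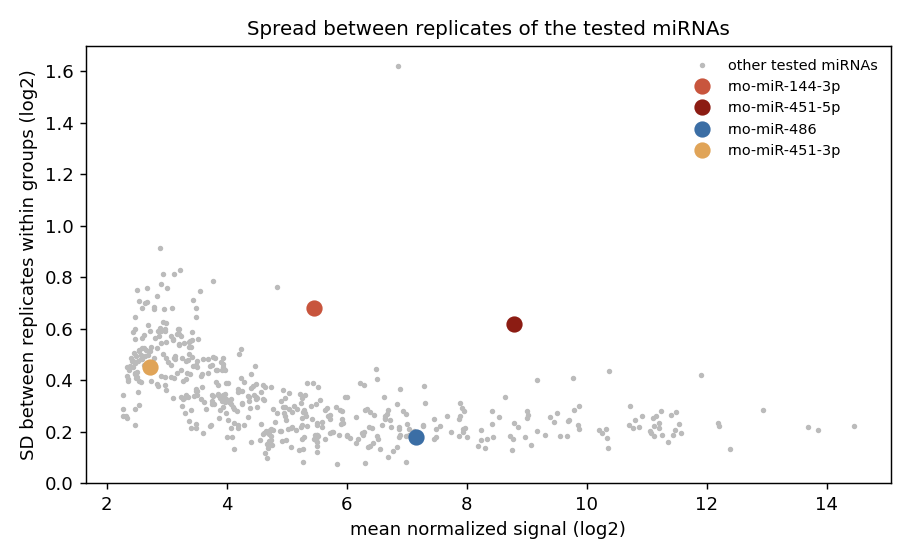
SD between replicates within groups against mean normalized signal (both log2) for the 503 tested miRNAs, each point 1 miRNA. Rno-miR-144-3p (0.68) and rno-miR-451-5p (0.62) lie above nearly all miRNAs of like brightness, and rno-miR-486 (0.18) lies among the others.

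Covariation was part of how the members were chosen, so it is described here without a test. After each group's mean was removed, Pearson's r of the log2 signals of rno-miR-144-3p and rno-miR-451-5p over the 10 arrays was 0.90 (0.89 among the Control arrays and 0.99 among the DEX arrays). Of all 126253 pairs of tested miRNAs, 1.55% had a higher r, and the median pair had 0.26. Each was the other's closest partner among 502. Leaving out each array in turn gave 0.85 to 0.94. With the group means kept in, r was 0.92 over the 10 arrays, and 0.87 over the 8 left without Control 2 and Control 3, the farthest from the median of rno-miR-144-3p. Since the arrays fell into 4 high and 6 low ones, this r was also taken within the 6 low arrays, where it was 0.87 (Spearman's rho 0.60). The spots of an array share its RNA, labelling and scaling factor, and the part of these in r was not tested.

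Rno-miR-486 was not seen to follow this pair over the 10 arrays, but r was too imprecise to decide whether it covaries with them. Its within-group r was -0.12 with rno-miR-144-3p and 0.32 with rno-miR-451-5p. The SE, from leaving out each array in turn, was 0.62 and 0.48. The signs differed by group: with rno-miR-144-3p it was -0.74 among the Control arrays and 0.80 among the DEX arrays, and with rno-miR-451-5p -0.38 and 0.88. With 5 arrays a group, these were not tested against each other. With the group means kept in, r with rno-miR-144-3p and rno-miR-451-5p was -0.13 and 0.25 over the 10 arrays, and 0.55 and 0.87 within the 6 low arrays (rho 0.43 and 0.83). From rno-miR-486, rno-miR-451-5p ranked 321 and rno-miR-144-3p ranked 432 among the 502 partners. Rno-miR-451-3p did not follow its own partner arm either (within-group r 0.054). It was however undetected on DEX 3 and DEX 5 and at 1.01 to 3.19 times the detection limit on the other arrays, so this r says little.

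**Figure D4:**
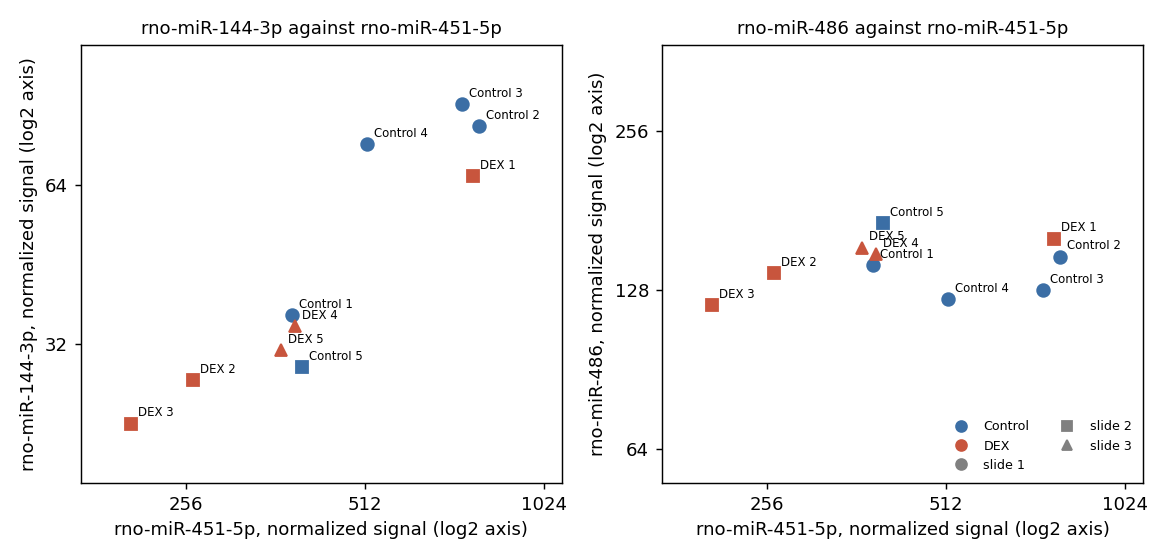
Normalized signal of rno-miR-144-3p (left) and rno-miR-486 (right) against that of rno-miR-451-5p, 1 point per array, log2 axes of equal span. On the left DEX 3 is lowest in both (22.6 and 207) and the 4 high arrays lie at the upper right, while on the right rno-miR-486 stays between 120.1 and 172.

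A ratio between members removes the scaling of the array. The log2 ratio of rno-miR-144-3p to rno-miR-451-5p had a within-group SD of 0.30, less than that of either member alone. The DEX minus Control difference of this log2 ratio was -0.16 (p = 0.429 in an exact permutation test). Against rno-miR-486 the differences were -0.77 for rno-miR-144-3p (exact permutation test, p = 0.119) and -0.61 for rno-miR-451-5p (exact permutation test, p = 0.127). None of these 3 ratios passed 0.05, even before adjustment for their number.

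The high arrays were also high against the spike controls, which do not depend on the heart's other miRNAs. As a percentage of the mean spike signal, rno-miR-451-5p was 9.68% on DEX 1 and 9.85% to 12.3% on Control 2 to Control 4. On the other 6 arrays it was 3.79% to 5.97%. Rno-miR-144-3p was 0.828% on DEX 1, 1.04% to 1.497% on those 3 Control arrays and 0.358% to 0.530% on the others. DEX 1 was high on both scales, but each divides by a value that was lowest on DEX 1. The median of its detected miRNAs over blank was 17.3, against 35.4 to 53.5 on the other arrays. Its spike mean was 5550, against 10308 to 15984. Before scaling, rno-miR-451-5p on DEX 1 was at 537 over blank, above only DEX 2 (528) and DEX 3 (391), with the highest array at 1600. The part of this dimness in the high place of DEX 1 was not tested.

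Other miRNAs abundant in red cells were also set beside the members. The list held 12, of which 9 were tested: rno-miR-16-5p, rno-miR-25-3p, rno-miR-15b-5p, rno-miR-92a-3p, rno-miR-93-5p, rno-miR-106b-5p, rno-miR-103-3p, rno-miR-107-3p and rno-miR-363-3p. Many of these are made in most tissues, the heart included. Of the 9, 0 passed the adjusted test, 8 were numerically higher and 1 lower in DEX, and the median log2 difference was 0.11, against 0.044 over all tested miRNAs, of which 297 were higher and 206 lower in DEX. Rno-miR-16-5p, a widely expressed miRNA of the cell cycle, read 1579 ± 174 on the Control arrays and 1782 ± 347 on the DEX arrays (SD, n = 5). The summed signal of the 9 ranged from 2208 to 3208 in Control and from 2442 to 3535 in DEX. Their median within-group r was 0.22 with rno-miR-451-5p and 0.81 with rno-miR-486, where all 502 other tested miRNAs had medians of 0.065 and 0.48. The highest with rno-miR-451-5p was 0.60, for rno-miR-363-3p. Of the remaining 3, rno-miR-182 was detected on 4 arrays, rno-miR-96-5p on 2 and rno-miR-183-5p on 0.

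Markers of other cells were taken beside the members. All 6 white cell miRNAs (rno-miR-142-3p, rno-miR-223-3p, rno-miR-146a-5p, rno-miR-142-5p, rno-miR-155-5p and rno-miR-150-5p) were numerically higher in DEX and 0 passed, with a median log2 difference of 0.25 and summed signals of 910 to 1162 in Control and 1029 to 1383 in DEX. Their median r was 0.029 with rno-miR-451-5p and 0.21 with rno-miR-486, where all 502 other tested miRNAs had medians of 0.065 and 0.48. Of the 6 heart muscle miRNAs, 5 were higher and 1 lower in DEX and 0 passed, with a median log2 difference of 0.14. Their summed signal of 32202 to 46018 in Control and 31101 to 45001 in DEX overlapped between the groups, and their median r was 0.081 with rno-miR-451-5p and 0.72 with rno-miR-486. Both endothelial arms, rno-miR-126a-3p and rno-miR-126a-5p, gave a median difference of 0.068, 0 passed, their median r was 0.20 with rno-miR-451-5p and 0.65 with rno-miR-486, and their summed signal was 4360 to 5783 in Control and 4370 to 6739 in DEX. No member of any of the 4 lists had an r with rno-miR-451-5p above the top 5% of all pairs (0.81), where 2 of all 502 others did. With rno-miR-486, 73 of the 502 passed this value, with each array scaled to its own detected miRNAs. Among them were 5 of the 9 red cell miRNAs, 3 of the 6 of heart muscle, 1 of the 6 of white cells and 1 of the 2 endothelial arms. The part of residual blood in any member's level was not tested.

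**Figure D5:**
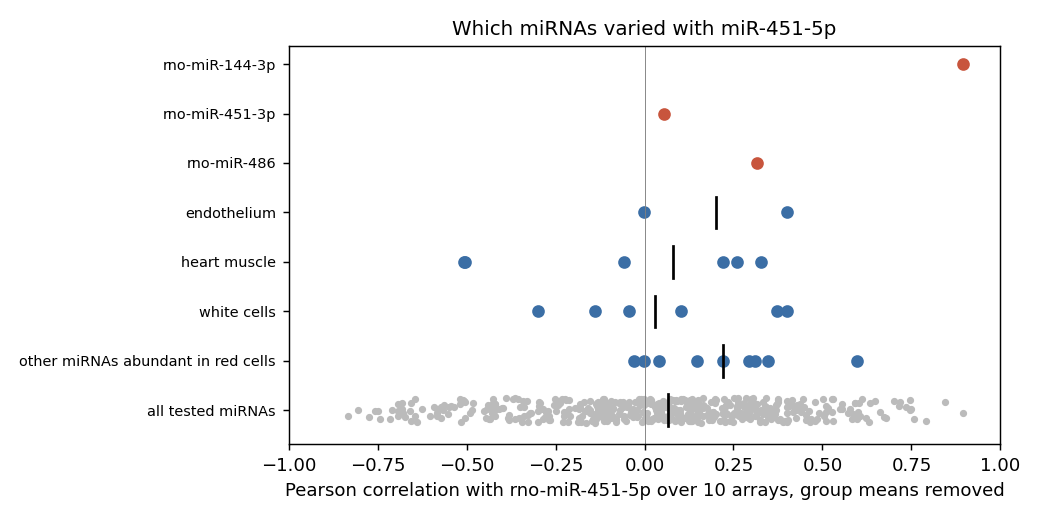
Pearson correlation with rno-miR-451-5p over 10 arrays after removal of group means, for the members, the marker lists and all tested miRNAs, each point 1 miRNA and each bar a median. Rno-miR-144-3p, the highest of all tested miRNAs, lies at 0.90. The listed miRNAs reach up to 0.60, for rno-miR-363-3p, which was detected on 7 of 10 arrays.

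The miRNAs closest to each member, by within-group r over the 10 arrays, were as follows. Apart from its hairpin neighbour, rno-miR-144-3p was most like rno-miR-6324 (0.84), rno-miR-3586-5p (0.83), rno-miR-598-5p (0.80) and rno-miR-466c-5p (0.78). With the same exception, rno-miR-451-5p was most like rno-miR-203a-3p (0.84), rno-miR-6324 (0.79), rno-miR-466c-5p (0.76) and rno-miR-667-3p (0.75). Of these partners, rno-miR-6324 averaged 10.1 in Control and 10.4 in DEX, rno-miR-598-5p averaged 21.7 and 20.6, and rno-miR-466c-5p averaged 20.3 and 18.8. Rno-miR-203a-3p averaged 11.6 and 12.9, and rno-miR-667-3p averaged 100 and 107. The dimmest was rno-miR-3586-5p, at 7.36 and 6.24, near the floor. Rno-miR-486 was closest to rno-miR-139-5p (0.97), rno-miR-149-5p (0.94), rno-miR-322-5p (0.94), the muscle miRNA rno-miR-1-3p (0.93) and the lymphocyte miRNA rno-miR-150-5p (0.93). Its closest partners depended on the scaling.

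Under the main scaling, with each array set to the median of its own detected miRNAs, rno-miR-486 had many close partners and the red cell pair few. The number of miRNAs above the top 5% of all pairs was 73 for rno-miR-486, 3 for rno-miR-144-3p and 2 for rno-miR-451-5p. The median r with all 502 others was 0.48, -0.16 and 0.065, in that order. The scaling entered here. With the median taken over the miRNAs detected on every array, the median r over all pairs was 0.033, against 0.26 under the main scaling. The within-group SD of rno-miR-486 was then 0.095 and its first partner became rno-miR-125b-2-3p. Its r with rno-miR-1-3p was 0.61, at rank 37. The pair of rno-miR-144-3p and rno-miR-451-5p stayed each other's first under this scaling. Across 7 other backgrounds, scalings and value sources this pair did so in 6, and not with normexp, a background correction that uses the scanner's background column (r 0.15).

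The miRNAs sharing bases 2 to 7 with rno-miR-144-3p are given for comparison. Rno-miR-101a-3p read 120.4 ± 14.6 in the Control group and 137 ± 19.1 in the DEX group (SD, n = 5 each), a log2 difference of 0.19 (limma, adjusted p = 0.895). Rno-miR-101b-3p read 72.4 ± 15.1 and 89.3 ± 15.9, a log2 difference of 0.31. Their within-group r with rno-miR-451-5p was -0.26 and -0.15.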

How the data were processed

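Total RNA of the left ventricle was labelled with Cy5 and hybridized to 3D-Gene rat miRNA chips, 1 array per rat, 5 a group. The labels name an RNeasy kit and the study's methods a miRNeasy kit for the extraction. What the scanner wrote for a spot, per the file headers, was its median brightness (intensity) at 635 nm, with no background removed. The deposited value table holds the authors' processed score, a linear signal scaled to a median of 25 and rounded. Software versions and the miRBase release are not given in the sources used here. Here the blank mean, trimmed by 5% on either side, was taken off each spot. A factor per array then brought the median of that array's detected miRNAs to 25. Values below detection took the array's lowest detected value, and log2 was taken. The scanner's background column was not subtracted, since it rose with the spot signal (correlation 0.951 to 0.984 by array).

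The 503 miRNAs detected on at least 5 of 10 arrays entered 1 fit with R 4.3.3 and limma 3.58.1 (eBayes after lmFit, no trend, two-sided), with p adjusted by Benjamini-Hochberg and a threshold of 0.05. For single values a two-sided exact permutation test was used. Groups and replicate numbers came from the labels, and no label ties arrays of different groups to each other. The number of arrays limits the precision. Correlations and figures were made in Python 3.11.15 with numpy 2.4.6 and matplotlib 3.10.9, and the code was tested on simulated data. The members, the marker lists and the rule for naming others (other arms of the members' genes, the 5 miRNAs most correlated with each member, the tested list members) were chosen with earlier results of these data known. The rno-miR-101 pair, found by its seed, was added outside that rule after its values could be seen. Sequences and positions came from RefSeq (GRCr8), which matched 3 of 4 members. Alternatives covered background, scaling, value source, detection limit, filter, floor, model, slide, replicate block, test and left-out arrays. Spike control scaling was added after seeing the data. No value columns were left unused.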

Additional observations from a re-analysis of the deposited data

Results flagged for a closer look

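Of 10 groups of 5 values examined for a lone value, 1 held one. The log2 median signal of the detected miRNAs before scaling was lowest on DEX 1 among the DEX arrays, and its gap to the next array was 0.809 of the group's range, above Dixon's critical value of 0.71. Chance alone passes this criterion in about 5% of groups. DEX 1 was also the DEX array highest in rno-miR-144-3p (66.5) and rno-miR-451-5p (777), and the part of its dimness in those levels was not tested. The members' differences without DEX 1 stand beside their tests above.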

How the results depend on the processing

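The count of 0 miRNAs called at an adjusted p under 0.05 held under all 29 alternatives (smallest adjusted p 0.0627 to 0.992; 7 to 35 at an unadjusted p under 0.05, against 15). No member passed an adjusted p under 0.05 in any of them (0.446 to 0.994 for rno-miR-144-3p, 0.616 to 0.997 for rno-miR-451-5p and 0.773 to 0.997 for rno-miR-486), while the unadjusted p was under 0.05 in 9, 3 and 0 of them. Directions, as log2 differences, were less steady. Rno-miR-144-3p was 0.25 when slide entered the model as fixed and 0.25 on slide 2 alone. Rno-miR-451-5p turned to 0.0048 with normexp on the background column. Rno-miR-486, near 0 from the start, turned to -0.036 with no background subtracted, -0.28 with normexp, -0.19 without scaling (where the median of all miRNAs was -0.16), -0.069 with quantile normalization, -0.00088 with array weights, -0.31 with slide fixed, -0.31 on slide 2 alone and -0.034 without slide 3. Leaving out each array in turn gave -0.998 to -0.59 for rno-miR-144-3p, -0.87 to -0.39 for rno-miR-451-5p and -0.032 to 0.088 for rno-miR-486. Without Control 5, rno-miR-144-3p was at -0.998 (limma, unadjusted p = 0.0131, adjusted p = 0.446). The within-group r of rno-miR-144-3p and rno-miR-451-5p was 0.15 with normexp, which subtracts a column that stood at 48.8% to 95.2% of the rno-miR-451-5p spot over blank, and 0.90 to 0.95 under the 6 other backgrounds, scalings and value sources. That of rno-miR-451-5p and rno-miR-486 ranged from -0.43 with no background subtracted to 0.64 without Control 5, and was 0.55 after quantile normalization. For rno-miR-144-3p and rno-miR-486 the range was -0.54 to 0.35. With the replicate block the differences were -0.75, -0.59 and 0.019 (adjusted p = 0.669, 0.669 and 0.955) with 0 adjusted and 35 unadjusted calls. The replicate number did not pair the arrays: deviations of same-numbered arrays correlated at -0.0846 to 0.101, and 2 of 5 correlated best with their own number. Rno-miR-144-5p gave no value under any alternative. With 1 Control array on slide 2 and none on slide 3, slide and group could hardly be separated, and signals near the floor, such as those of rno-miR-451-3p, have little order among themselves. Causes of these shifts were not tested.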

Other observations

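Rno-miR-451-3p, whose sequence follows rno-miR-451-5p in the Mir451a hairpin, was most like rno-miR-181a-2-3p (within-group r 0.69 over 10 arrays), rno-miR-668 (0.64), rno-miR-376b-3p (0.61), rno-miR-3549 (0.60) and rno-miR-5132-3p (0.58). Under the main scaling, none of these was among the 5 closest partners of the other members. The first partner of rno-miR-486 changed with the processing: it was rno-miR-361-3p with no background subtracted, rno-miR-149-5p without scaling, rno-miR-3547 after quantile normalization and rno-miR-181a-2-3p after scaling to the spike controls. Under spike scaling the within-group r of rno-miR-144-3p and rno-miR-451-5p was 0.93, and each remained the other's first partner. Among the white cell miRNAs, rno-miR-155-5p had the widest numerical difference, 7.95 in Control and 11.8 in DEX on the normalized scale (log2 difference 0.51, which did not pass the adjusted test).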
